A study of Mus musculus with 2 samples.

Results

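Neurons release transmitter from synaptic vesicles that dock at the active zone, a protein scaffold on the presynaptic membrane. The release machinery was followed here through 49 mouse genes, taken by name from the 43346 genes listed in both libraries: genes of vesicle proteins, of calcium sensors, of the SNARE fusion proteins, of the Rab3 GTPases, of active zone scaffolds and priming factors, and of vesicle recycling. All 49 symbols matched 1 listed gene each. The tissue was forebrain of B6NCrl mouse embryos at 16.5 days of gestation, pooled from both sexes, with no allele or treatment recorded. Libraries were made from 10 ng of total RNA longer than 200 nt, to which ERCC spike-in RNAs had been added. The series holds 1 group of 2 biological replicates, each a separate pool. The labels give 41 embryos for the pool of replicate 2 and no number for replicate 1. With no second tissue, age or treatment, the data allow a description of levels in this tissue and a comparison of its pools, and no test between conditions.

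As background, an action potential opens calcium channels at the active zone, and calcium bound by synaptotagmin lets the SNARE proteins of vesicle and plasma membrane zip together and fuse the membranes. RIM, Munc13 and CAPS proteins prepare vesicles for this step, Rab3 proteins and synapsins control their supply, and NSF with its SNAP adaptors takes the SNARE complexes apart again. Dynamin, synaptojanin, amphiphysin and AP180 then retrieve the membrane. In the late embryonic forebrain few synapses have formed, and many of these proteins also travel in the vesicles of growing axons.

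Gene counts summed to 31211097 in replicate 1 and 26957152 in replicate 2, and the biological coefficient of variation was 12.3%. All 10 neuron markers (Tubb3, Stmn2 and others) and all 5 forebrain markers (Emx1, Dlx2 and others) were at no less than 1 TPM in each library, where TPM is the deposited level per transcript length. The 5 hindbrain markers summed to 0.21 and 0.67 TPM in replicates 1 and 2, with Hoxa2 and Hoxb4 at 0 counts in both. The pools differed in other cell markers. Summed levels of 8 dividing cell markers were 591 and 721 TPM in replicates 1 and 2, those of 7 meningeal markers 205 and 471 TPM, those of 6 hypothalamic markers 41.0 and 12.5 TPM and those of 6 thalamic markers 94.3 and 55.9 TPM.

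The vesicle and active zone genes were transcribed at a wide range of levels. The 49 genes together held 2915 TPM in replicate 1 and 2559 TPM in replicate 2, or 0.496% and 0.428% of gene counts. Their median level was 30.7 TPM, against 5.05 TPM over all 21474 protein-coding genes and 21.9 TPM over those that reached 1 TPM in each library. Of the 49 genes, 46 reached 1 TPM in both libraries, against 60.7% of protein-coding genes. The level of 10 TPM was reached in both by 35, against 40.9%, and that of 100 TPM by 9, against 7.74%. Syt2 and Unc13c passed 1 TPM in 1 library only, and Cplx3 in neither. By role, median levels ran from 85.8 TPM for the 10 SNAREs and their partners and 83.9 TPM for the 3 Rab3 genes down to 8.52 TPM for the 12 active zone and priming genes. In between were 31.6 TPM for the 9 synapsins and vesicle membrane proteins, 30.9 TPM for the 5 endocytosis genes and 23.7 TPM for the 10 calcium sensors.

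**Figure D1:**
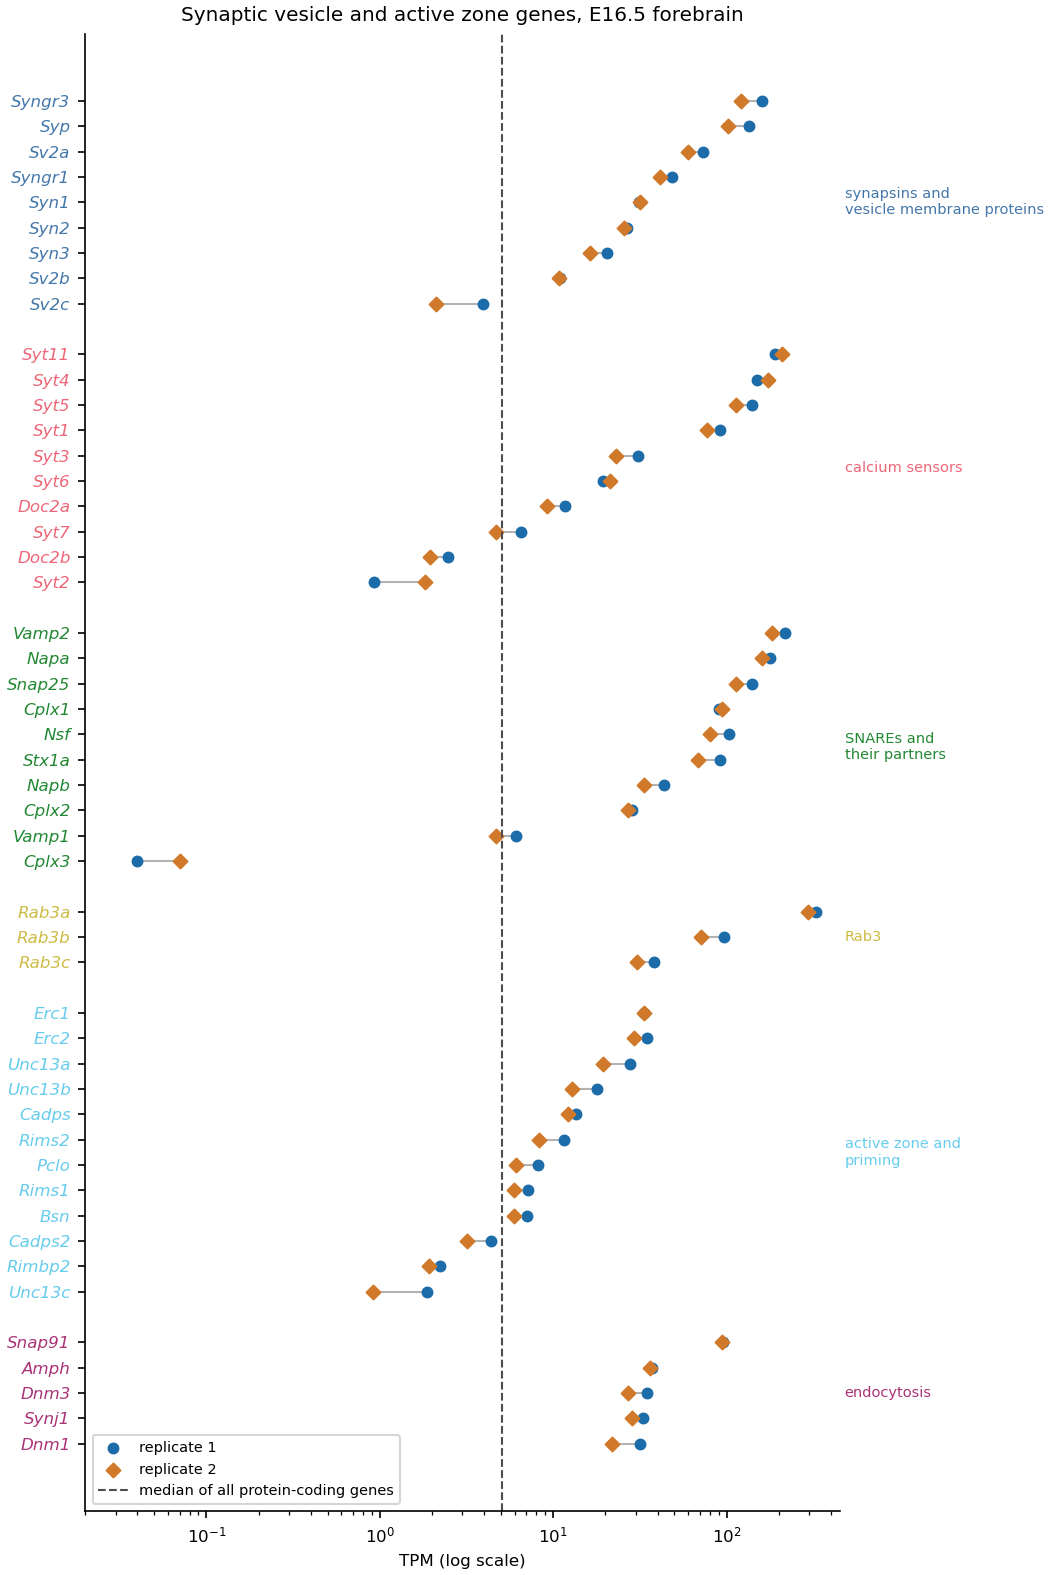
Level of each of the 49 genes in TPM (log scale) in replicate 1 (circles) and replicate 2 (diamonds), ordered by mean within each role, with the median of all protein-coding genes (5.05 TPM) as a dashed line. Rab3a, at 329 and 297 TPM, is the highest and Cplx3, at 0.04 and 0.07 TPM, the lowest, and no active zone gene reaches 100 TPM.

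Among the vesicle membrane proteins, the synaptogyrin gene Syngr3 (chromosome 17, 24685092 to 24689955) and the synaptophysin gene Syp were highest. Syngr3, whose product is a 4-span vesicle protein, had 161 TPM in replicate 1 against 121 TPM in replicate 2 (141 ± 28.6 TPM, SD, n = 2). Syp, a vesicle protein much used as a synaptic marker, was at 134 and 102 TPM (118 ± 22.2 TPM). Both were lower in replicate 2. Sv2a, the most abundant member of the SV2 transporter-like family, was at 72.7 and 59.6 TPM, and Syngr1, the relative of Syngr3, at 48.4 and 41.6 TPM. The synapsins tether vesicles to one another and to the cytoskeleton. Syn1 was at 31.4 and 31.8 TPM, Syn2 at 26.8 and 25.6 TPM and Syn3 at 20.5 and 16.4 TPM. Only Syn3 was clearly apart between the pools, and only as a gene total. Its transcript with the longest coding sequence, Syn3-201, was not lower in replicate 2, at 8.64 and 9.2 TPM. The fall lay in Syn3-202 (4.45 and 2.43 TPM) and in 2 transcripts annotated with a retained intron. These were Syn3-203 (5.0 and 3.09 TPM) and Syn3-206 (2.08 and 0.84 TPM), while Syn3-204 rose from 0.35 to 0.81 TPM. The other SV2 genes were low. Sv2b was at 11.0 and 10.8 TPM, and Sv2c, the lowest of this group, at 3.94 and 2.12 TPM (207 and 100 counts).

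Among the calcium sensors, the synaptotagmins Syt11 and Syt4 had more TPM in both libraries than Syt1, the fast sensor of transmitter release. For Syt4 against Syt1 the difference did not pass the 3 SD rule used below for pairs. Syt11 (chromosome 3, 88744700 to 88775164) was at 190 and 208 TPM (199 ± 12.7 TPM), and Syt4 at 149 and 174 TPM (161 ± 17.3 TPM). Both encode synaptotagmins that lack normal calcium binding in the first of their C2 domains, and both were higher in replicate 2. Syt5 was at 140 and 114 TPM and Syt1 at 91.2 and 77.6 TPM. Syt3 was at 30.9 and 23.1 TPM and Syt6 at 19.4 and 21.2 TPM, genes for synaptotagmins that form disulfide-linked dimers. Syt7, a slow, high-affinity sensor, was at 6.5 and 4.69 TPM. Doc2a and Doc2b, high-affinity sensors linked to spontaneous release, were at 11.7 and 9.22 TPM and at 2.46 and 1.94 TPM. Syt2, the fast sensor of hindbrain and spinal synapses, was the lowest, with 114 counts in replicate 1 and 87 in replicate 2. Its TPM was 0.93 and 1.83, opposite in order to its counts, because the counts were assigned to transcripts of different lengths, with an effective gene length of 6544.04 nt in replicate 1 and 3011.25 nt in replicate 2. It was the only 1 of the 49 genes for which count and TPM ratios lay more than 1.5-fold apart.

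Of the SNARE genes, Vamp2 was highest. Vamp2, the vesicle SNARE of most central synapses (chromosome 11, 69088490 to 69092384), was at 216 and 183 TPM (200 ± 22.9 TPM). Snap25 and Stx1a, the plasma membrane SNAREs, were at 140 and 113 TPM and at 91.2 and 68.7 TPM. All 3 were lower in replicate 2. Napa, which encodes the alpha-SNAP adaptor used at membranes throughout the cell, was second in the group at 179 and 161 TPM. Nsf, the ATPase that it recruits, was at 103 and 80 TPM, and Napb, the adaptor of the brain, at 43.8 and 33.4 TPM. Complexins clamp and promote fusion by binding the SNARE bundle. Cplx1 was at 89.9 and 94.7 TPM and Cplx2 at 28.5 and 27.0 TPM. Cplx3, known from retinal ribbon synapses and from subplate neurons, had 2 counts in replicate 1 and 3 in replicate 2, at or below the 3 counts that a count of 0 still allows, and was not told apart from 0. Vamp1, the vesicle SNARE of hindbrain and motor synapses, was at 6.07 and 4.68 TPM.

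Rab3a, the main Rab3 GTPase of synaptic vesicles, had the highest level of all 49 genes. Rab3a (chromosome 8, 70754679 to 70758677) was at 329 and 297 TPM (313 ± 22.5 TPM). Rab3b was at 96.2 and 71.7 TPM and Rab3c at 38.4 and 30.3 TPM. All 3 were lower in replicate 2.

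The active zone and priming genes were led by the ELKS genes. Erc1 was at 33.4 TPM in both replicates and Erc2, whose product is confined to the brain, at 34.6 and 29.2 TPM. The Munc13 proteins open syntaxin so that SNARE complexes can form. Unc13a was at 27.8 and 19.4 TPM, Unc13b at 17.8 and 12.9 TPM and Unc13c, best known from cerebellar granule cells, at 1.87 and 0.91 TPM. Cadps and Cadps2, the CAPS priming factors, were at 13.6 and 12.2 TPM and at 4.38 and 3.20 TPM. RIM proteins tie vesicles to calcium channels. Rims2 was at 11.5 and 8.32 TPM, Rims1 at 7.19 and 5.96 TPM and the RIM binding protein gene Rimbp2 at 2.24 and 1.92 TPM. The genes of the scaffolds Bassoon and Piccolo, Bsn and Pclo, were at 7.09 and 5.92 TPM and at 8.15 and 6.08 TPM. Their annotated coding sequences are among the longest of the set (11826 nt for Bsn and 15204 nt for Pclo). The transcripts with these sequences did not hold most of the gene levels. Bsn-201 was at 1.53 and 1.16 TPM, and Pclo-201 was listed at 0.0 TPM in both replicates. Pclo-202, with 14589 coding nt, was at 1.71 and 1.16 TPM. The gene levels are therefore not levels of full-length scaffold transcripts. By TPM, each of the active zone and priming genes except Erc1 was lower in replicate 2.

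The endocytosis genes lay within a narrower range. Snap91, which encodes the clathrin assembly protein AP180, was at 95.5 and 93.9 TPM (94.7 ± 1.14 TPM). Amph, for the membrane-bending protein amphiphysin, followed at 37.1 and 36.4 TPM. Both were near equal in the pools. Dnm3 was at 34.6 and 27.2 TPM, Synj1, the lipid phosphatase that strips clathrin coats, at 32.8 and 28.6 TPM and Dnm1, the neuronal dynamin that cuts vesicles free, at 31.8 and 21.9 TPM.

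Within families, 1 paralogue usually stood above the others in both libraries. For 27 pairs, of which 24 lay within the 49 genes, the log2 ratio of TPM (with a pseudocount of 0.1) was taken in each library. A pair was counted as different where the sign was shared by the libraries and the mean was over 3 SD from 0. This held for 21 of 27 pairs and for 19 of the 24, a count that rests on 2 libraries and carries no p-value. The rule was not applied to pairs of unrelated genes, so the count has no background share and does not set families apart from other genes. The widest differences that could be measured set the fast sensor and the vesicle SNARE of forebrain synapses against relatives known from hindbrain, spinal or motor synapses. Syt1 exceeded Syt2 by 5.90 ± 0.80 on the log2 scale, although the level of Syt2 depended on its transcripts as given above, and Vamp2 exceeded Vamp1 by 5.20 ± 0.09. Next were Syt5 over Syt7 at 4.49 ± 0.11, Sv2a over Sv2c at 4.46 ± 0.41 and Unc13a over Unc13c at 4.05 ± 0.31. Sv2a exceeded Sv2b by 2.59 ± 0.19, Rab3a exceeded Rab3c by 3.19 ± 0.14 and Rab3b by 1.91 ± 0.20, and Cadps exceeded Cadps2 by 1.75 ± 0.20. Cplx1 exceeded Cplx3 in both libraries, but no fold is given for so few counts.

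In other pairs the second gene was the higher. Syngr1 was below Syngr3 by a log2 ratio of -1.64 ± 0.14, Cplx2 below Cplx1 by -1.73 ± 0.11, and Syt1 below Syt11 by -1.24 ± 0.26. The brain adaptor Napb was below the general adaptor Napa at -2.15 ± 0.17, and Doc2b below Doc2a at -2.20 ± 0.01. That SD does not cover the uncertainty of the Doc2a level, since 39.4% of Doc2a exon bases overlap Ino80e on the opposite strand. Doc2a-208, annotated as a target of nonsense-mediated decay, held 41.6% and 43.7% of Doc2a TPM. Rims1 was below Rims2 at -0.57 ± 0.14. Smaller differences past the 3 SD mark were Syn1 over Syn2 at 0.27 ± 0.06, Syn1 over Syn3 at 0.78 ± 0.24 and Unc13a over Unc13b at 0.61 ± 0.05. The pairs not told apart were Syt1 and Syt4 (-0.94 ± 0.32), Syt3 and Syt6 (0.39 ± 0.39), Bsn and Pclo (-0.12 ± 0.11), Erc1 and Erc2 (0.07 ± 0.17), and Dnm1 and Dnm3 (-0.21 ± 0.13). Against relatives outside the 49 genes, Snap25 exceeded the ubiquitous Snap23 by 2.90 ± 0.28 and Snap91 exceeded the ubiquitous Picalm by 2.27 ± 0.07. The ubiquitous dynamin Dnm2 over Dnm1 was at 1.27 ± 0.48, which did not pass 3 SD.

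**Figure D2:**
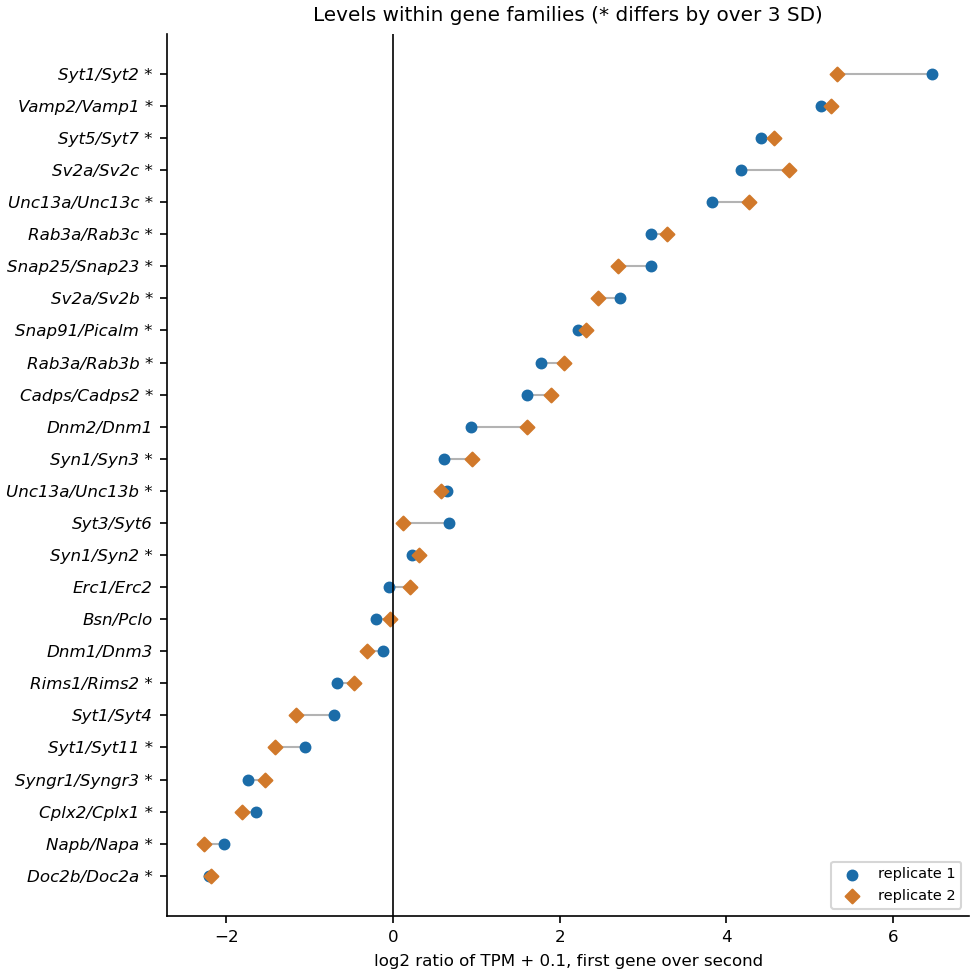
Log2 ratio of TPM (plus 0.1) of the first over the second gene of 26 pairs in replicate 1 (circles) and replicate 2 (diamonds), with Cplx1 over Cplx3 left out for its few counts. A star marks pairs of equal sign in both libraries and a mean over 3 SD from 0, from Syt1 over Syt2 at the top to Doc2b over Doc2a at the bottom, and Bsn and Pclo lie near 0.

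Between the pools, most of the 49 genes were lower in replicate 2 when set against the bulk of genes. Ratios are log2 of replicate 2 over replicate 1 of counts scaled by the trimmed mean of M-values (TMM), and 48 of the 49 genes had the mean count of at least 50 required, all but Cplx3. Their ratios ran from -1.05 to 0.20, with a median of -0.31, against 0.011 over all 13927 genes so filtered. Of the 48, 44 were below 0, against 47.9% of all genes, and 38 had a 95% counting interval wholly below 0, against 24.0%. Only 3 had an interval wholly above 0, against 26.5%, and 7 had one that included 0. The summed counts of the 49 genes had a ratio of -0.19 (95% counting interval -0.20 to -0.18), nearer 0 than the median. These intervals cover counting error only, and there is 1 library on each side. The ratios give the RNA of these genes relative to the bulk of genes and not its absolute amount. In a tissue pool, a lower share cannot be told apart as fewer cells, as less RNA per cell or as more RNA of other genes.

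Every role group had a median below 0, and for nearly every gene the difference was under 2-fold. Median ratios were -0.41 for vesicle membrane proteins, -0.36 for Rab3 genes and for active zone and priming genes, -0.28 for calcium sensors, -0.27 for SNAREs and partners and -0.25 for endocytosis genes. All 12 active zone and priming genes were below 0. Only Unc13c was at least 2-fold apart with an interval excluding equality, a call that 1.38% of all genes met in either direction and 1.01% met as lower in replicate 2. Its counts were 305 and 125, with a log2 ratio of -1.05 (-1.36 to -0.75). Sv2c followed at -0.81 (-1.17 to -0.46), then Cadps2 at -0.59 (-0.89 to -0.30), Syn3 at -0.51 (-0.64 to -0.38), and Syt7 and Rims2, both at -0.49.

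At the other end were 3 synaptotagmin genes. For Syt4 the counts were 10637 and 10402, with a log2 ratio of 0.20 (0.16 to 0.24) in spite of the lower depth of replicate 2. Syt6 was at 0.12 (0.01 to 0.23) and Syt11 at 0.10 (0.06 to 0.13). They were the genes with intervals wholly above 0. Cplx1 at 0.06 (-0.01 to 0.13) and Syn1 at 0.00 (-0.10 to 0.10) were next, and Syn2, Sv2b, Syt2, Rimbp2 and Amph also had intervals that included 0.

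**Figure D3:**
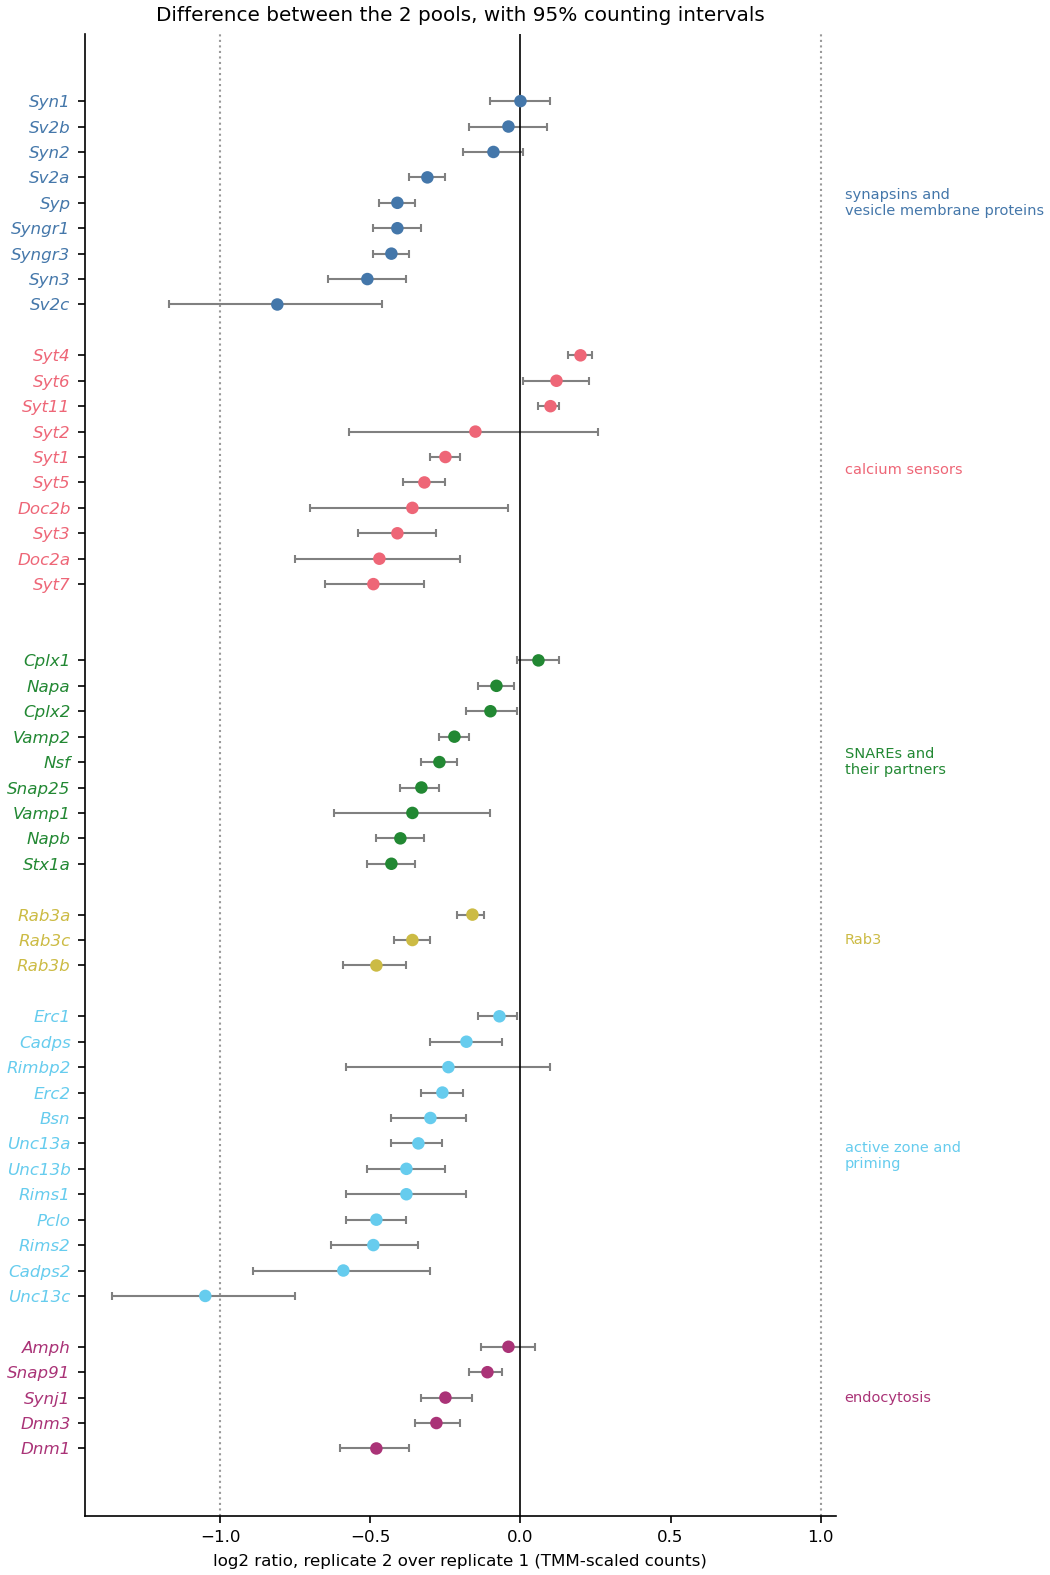
Log2 ratio of replicate 2 over replicate 1 of TMM-scaled counts for the 48 genes that averaged 50 counts or more, by role, with 95% exact counting intervals as bars and dotted lines at 2-fold. All but 4 points lie below 0, 3 of the exceptions being Syt4, Syt6 and Syt11, and Unc13c is the only point past 2-fold.

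A wider list of presynaptic genes, which mixes genes used in all cells with close relatives of the 49 genes, had a median ratio nearer 0. Of a list of 65 further genes, among them liprins, clathrin and AP2 subunits, endophilins and neurexins, 64 reached 1 TPM in each library and the median level was 26.8 TPM, against 30.7 TPM for the 49 genes. The highest were subunits of the clathrin adaptor AP2 and a SNAP-25 relative, with Ap2m1 at 707 and 678 TPM, Snap47 at 370 and 354 TPM and Ap2s1 at 315 and 310 TPM. The 62 with enough counts had a median ratio of -0.08, with 42 below 0, 31 with an interval below 0, 8 with one above 0 and 23 with one that included 0. Only Syt13 was at least 2-fold apart, at 20.0 and 9.76 TPM. Relatives, picked after their values were seen, went both ways. Rims3 was at -0.56, Rims4 at -0.49, Syt9 at -0.44 and the RIM binding protein gene Tspoap1 at -0.84, within the range of the 49 genes. Above 0 were Sypl at 0.31, Syngr2 at 0.23 and Syt14 at 0.17, while Rab3d was at 0.03 and Syt16 at -0.05. Genes used in all cells also went both ways. Ap2m1 was at -0.03, the clathrin heavy chain gene Cltc at 0.12 and Vamp3 at 0.23, but Snap29 at -0.31 and the clathrin light chain gene Cltb at -0.20. The difference in median between the lists was not tested.

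**Figure D4:**
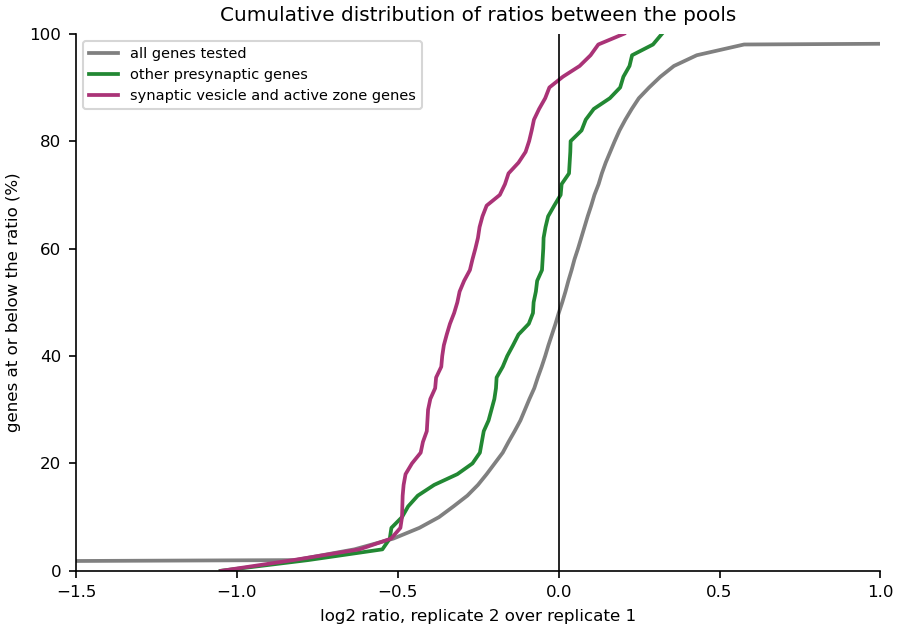
Cumulative share of genes (%) at or below each log2 ratio of replicate 2 over replicate 1, for the 48 vesicle and active zone genes, 62 other presynaptic genes and all 13927 genes tested. The curve of the vesicle and active zone genes crosses 50% at -0.31, that of the other presynaptic genes at -0.08 and that of all genes at 0.011.

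Markers of cell types moved between the pools as well. The 10 neuron markers had a median ratio of -0.20, with 7 below 0 and 3 above, and their summed counts a ratio of -0.07 (-0.08 to -0.06). All 6 hypothalamic and all 6 thalamic markers were below 0, with summed ratios of -1.52 and -0.62, as were all 3 neuroendocrine markers (Chga, Chgb, Scg2), at -0.50. All 8 dividing cell markers and all 8 radial glia markers were above 0, with summed ratios of 0.28 and 0.32. So were all 7 meningeal markers, at 1.32, and all 5 forebrain markers, at 0.10. All 5 erythroid, all 5 endothelial and all 5 microglial markers were above 0 too, with summed ratios of 0.34, 0.25 and 0.36. The choroid plexus markers had a summed ratio of -0.20, with the 2 tested below 0. Oligodendrocyte precursor markers were mixed, with 4 above 0, 1 below and a summed ratio of 0.04. The part of these shifts in the result for the 49 genes was not tested. The neuron markers themselves differed, from Nefl at -0.50 and Gap43 at -0.42 to Dcx at 0.17, so the result depends on how they are used. Scaled to their summed counts, the 48 genes had a median of -0.24 with 41 below 0, against a median of 0.084 and 34.4% below 0 for all genes. Scaled to their median ratio, the 48 genes had a median of -0.12 with 33 below 0, against 0.21 and 20% for all genes. No member was 2-fold apart under either, and both scalings were chosen after the data were seen. Scaled to the ERCC spike-ins, the 48 genes had a median of 0.24 with 3 below 0, against 0.564 and 5.24% for all genes. Each of these scalings shifts all genes alike, so the distance of 0.33 between the medians is the same by construction and says nothing of neuron content.

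The 49 genes were long in the genome. Their median span was 69.0 kb, against 17.7 kb for all protein-coding genes and 24.2 kb for those with a mean of 10 TPM or more, and 21 of them (42.9%) spanned over 100 kb, against 11.5% and 13.2%. Levels fell with span, with a median of 98.9 TPM for the 14 tested genes up to 30 kb, among them Rab3a at 4.00 kb and Vamp2 at 3.90 kb, 30.7 TPM for 13 between 30 and 100 kb, and 15.3 TPM for 21 above 100 kb, among them Erc2 at 856 kb. The levels of all protein-coding genes in these classes were not computed, so the fall is not shown to be a feature of the 49 genes. The ratio between pools had a median of -0.34, -0.33 and -0.27 in these classes, with 13 of 14, 10 of 13 and 21 of 21 genes below 0. For protein-coding genes of the same classes the medians were 0.005, 0.052 and -0.01, with 48.9%, 39.3% and 52.0% below 0. These span limits were chosen after the data were seen.

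Transcripts gave a second view of the same genes. The tables list 245 transcripts for the 49 genes, and 9 genes have only 1. Of 29 genes with several transcripts that reached 10 TPM in each library, 26 had the same leading transcript in both pools (89.7%), against 92.8% of 6833 genes so filtered. The exceptions had leading transcripts of similar share. In Syn1, Syn1-202 held 51.0% of the gene's TPM in replicate 1 and 40.4% in replicate 2, and Syn1-201 49.0% and 59.6%, with coding lengths of 2010 and 2118 nt. In Syt3, Syt3-201 held 44.9% and 40.5% and Syt3-202 36.5% and 43.3%. In Erc1, the protein-coding Erc1-203 held 47.0% and 41.1%, and Erc1-206, annotated as a target of nonsense-mediated decay, 43.5% and 41.6%. Such shares rest on a model that divides reads among transcripts, run by the authors, and are least certain where transcripts differ by little.

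Snap25 carries a pair of alternative exons that are used one at a time, giving the forms named Snap25a (upstream exon) and Snap25b (downstream exon). As background, the a form is known from the embryonic brain and the b form takes over as synapses mature. Both exons are 118 nt long and coding, and they are printed here, sense strand, because the choice between them sets part of the protein. The upstream exon lies at chr2:136769743-136769860 and the downstream exon at chr2:136770057-136770174, both on the plus strand of mm10, and capitals mark the 31 bases at which they differ (73.7% identity).
Snap25 upstream exon: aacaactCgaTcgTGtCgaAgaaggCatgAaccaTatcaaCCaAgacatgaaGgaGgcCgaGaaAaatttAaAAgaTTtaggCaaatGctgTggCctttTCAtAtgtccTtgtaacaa
Snap25 downstream exon: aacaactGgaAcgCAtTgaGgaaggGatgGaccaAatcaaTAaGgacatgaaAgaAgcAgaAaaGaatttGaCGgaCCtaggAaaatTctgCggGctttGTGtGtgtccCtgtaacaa
The only transcript listed with the upstream exon, Snap25-202, held 22.3% of Snap25 TPM in replicate 1 and 21.6% in replicate 2. The only one with the downstream exon, Snap25-201, held 75.5% and 76.8%. The pools were close to each other. These transcripts also differ in the length of their last exon, 277 nt in Snap25-202 and 1354 nt in Snap25-201, so reads from the longer end bear on the shares whichever alternative exon a molecule held. The shares are therefore not a measure of exon choice alone.

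Dnm1, the neuronal dynamin, has a similar pair of exons of 139 nt each in the part that encodes its middle domain, and they are shown because several transcripts hold one or the other. On the minus strand of mm10, the upstream exon lies at chr2:32334682-32334820 and the downstream exon at chr2:32333066-32333204, and capitals mark the 39 bases that differ (71.9% identity).
Dnm1 upstream exon: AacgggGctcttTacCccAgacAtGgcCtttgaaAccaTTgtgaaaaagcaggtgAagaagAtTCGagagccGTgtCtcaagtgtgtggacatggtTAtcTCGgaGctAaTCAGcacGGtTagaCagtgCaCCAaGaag
Dnm1 downstream exon: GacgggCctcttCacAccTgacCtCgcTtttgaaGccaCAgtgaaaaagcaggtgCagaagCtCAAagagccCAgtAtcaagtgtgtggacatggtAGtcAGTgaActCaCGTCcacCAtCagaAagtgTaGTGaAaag
Among full coding transcripts, 4 with the upstream exon held 54.3% of Dnm1 TPM in replicate 1 and 43.5% in replicate 2, and 1 with the downstream exon, Dnm1-201, held 11.5% and 18.7%. The upstream form led in both. The deposited bounds of Dnm1-201, 2.07 to 5.04 TPM in replicate 1 and 2.57 to 5.33 TPM in replicate 2, overlap, so a difference between the pools was not resolved. These transcripts also differ in their last exon, from 594 to 2017 nt. Dnm1-202 was listed at 0.00% in replicate 1 and 13.3% in replicate 2, but its bounds reach 2.18 and 4.79 TPM and overlap almost wholly, so this difference was not resolved either.

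Other families of transcripts were divided in different ways. Syn2-202 held 77.0% and 74.0% of Syn2 and Syn2-201 23.0% and 26.0%. Vamp1-203 held 50.9% and 63.1% of Vamp1 and Vamp1-201 44.4% and 32.9%. In Rims2, whose gene level was near 10 TPM, the pair of listed transcripts held 57.4% and 42.6% in replicate 1 and 49.0% and 51.0% in replicate 2. The long Synj1-203, with a coding length of 4821 nt, held 33.7% and 35.1% of Synj1, while Synj1-208, an 8-exon model with 566 coding nt, held 36.4% and 35.3%. Syt7 was split among Syt7-202 at 36.5% and 34.2%, Syt7-203 at 34.9% and 35.8% and Syt7-201 at 28.6% and 30.1%. Unc13b-201, with 39 exons, held 42.1% and 49.2% of Unc13b.

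Protein-coding transcripts held most of the TPM of most genes. Their median share was 94.7% over the 29 genes and 91.1% over 6691 protein-coding genes so filtered. Under 80% in both libraries were 8 of the 29 genes (27.6%), against 30% of all, so the vesicle and active zone genes were near the background. In 5 of these genes transcripts annotated with a retained intron held the largest part of the rest. Their shares were 39.2% and 24.4% in Unc13b, 38.1% and 29.7% in Napa, 36.2% and 29.0% in Syn3, 34.5% and 28.7% in Unc13a and 26.8% and 21.6% in Dnm1. Each was lower in replicate 2. The retained intron share also fell in others of the 29 genes, among them Nsf (19.4% and 10.1%), Dnm3 (16.3% and 12.9%) and Syt1 (11.0% and 7.73%). It rose in Stx1a, Erc1, Syp, Rab3a and Sv2a. The share of all genes with such a fall was not computed. The fall is therefore not shown to be a feature of the named genes. In Syt6 and Erc1 the rest lay in transcripts annotated for nonsense-mediated decay, at 41.7% and 46.1% of Syt6 and 43.4% and 47.5% of Erc1. Stx1a, the eighth, had 70.2% and 73.6% in protein-coding transcripts. Below the 10 TPM limit, Pclo had 38.9% and 37.4% in retained intron transcripts.

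**Figure D5:**
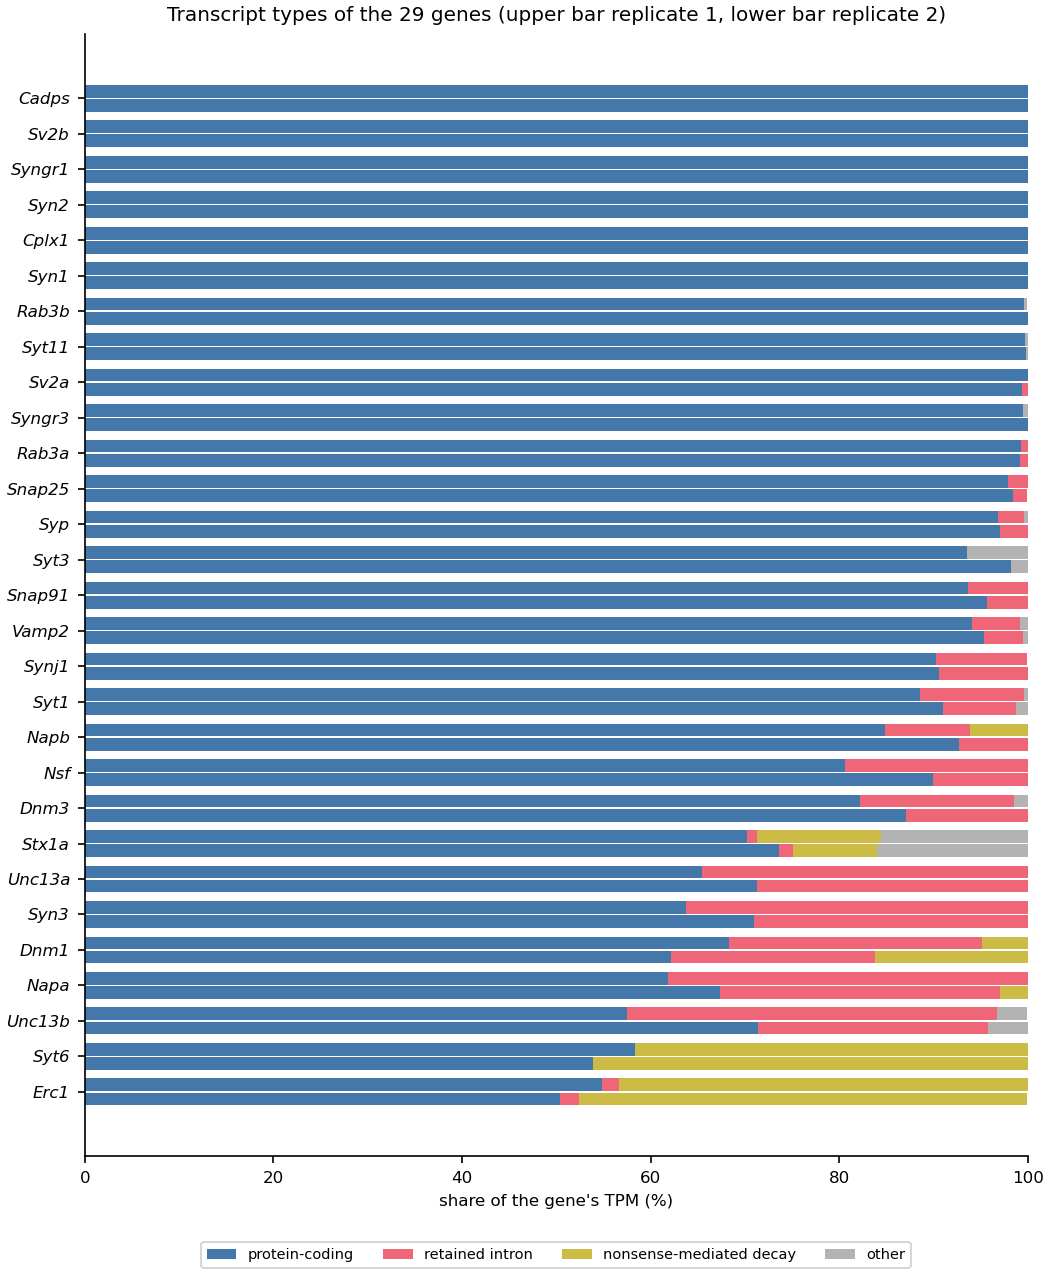
Share of each gene's TPM (%) in protein-coding, retained intron, nonsense-mediated decay and other annotated transcripts, for the 29 genes with several transcripts that reached 10 TPM in each library, with replicate 1 as the upper and replicate 2 as the lower bar. Cadps and Syn1 are wholly protein-coding, and Erc1 and Syt6 have the lowest protein-coding shares in replicate 2, at 50.4% and 53.9%.

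Some levels are uncertain because exons overlap those of another gene, and the sources used here do not say whether reads were counted by strand. Exons of 20 of the 49 genes overlap another gene, 19 of them on the opposite strand, and in 5 genes the overlap exceeds 10% of exon bases. The share of all genes with such overlaps was not computed, so these counts are not set against a background. Doc2a shares 39.4% with Ino80e, which was at 65.1 and 65.7 TPM, several times the level of Doc2a. Syp shares 16.8% with the antisense gene Gm14703 at 3.66 and 2.63 TPM, Syt4 14.5% with Gm26658 at 1.55 and 1.32 TPM and Syn3 14.1% with Timp3 at 17.8 and 19.9 TPM. Erc1 shares 11.8% with Gm44317, which has no value in these tables.

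Promoter sequence was compared for the 39 genes with an entry in the RefSeq promoter table (GRCm38.p6), which holds 250 bases before and 50 after each start. Snap25, Vamp2, Syt4, Syt5, Syt7, Syngr3, Syn3, Doc2a, Doc2b and Rims2 have none there. Median GC content was 62.7%, against 56.3% over 17492 protein-coding genes, and the ratio of observed to expected CpG was 0.71 against 0.564. Letters were searched on both strands, and the motifs were chosen with the data known. The GC box GGGGCGGGG was in 15 of 39 promoters (38.5%), against 17.3% of protein-coding and 12.9% of all genes, and the E-box CAGCTG in 13 (33.3%), against 17.4% and 18.3%. TATAAA was in 2 (5.13%), Rab3b and Sv2b, against 14.8% and 15.7%. A match is a description of letters and not a bound site.

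The RE1 element binds the repressor REST, which keeps many neuronal genes silent in other cells, and Syn1 is one of its known targets. Only exact matches were counted, whatever the distance between the parts. The left part of the element, TTCAGCACC, was in 2 promoters (5.13%), Syn1 and Unc13a, against 0.48% of protein-coding and 0.433% of all genes. An exact right part, GGACAGCGC, was in that of Unc13a alone (2.56%), against 0.629% and 0.477%. In Syn1 the bases ggtcagagc, close after the left part, resemble the right part but were not counted. The search therefore does not show which gene has the fuller element. The cAMP response element TGACGTCA was in 2 promoters (5.13%), Napa and Syn1, against 2.54% and 2.03%. The 250 bases before the Syn1 start, chrX:20920919-20921168 on the minus strand, are printed because they hold the left RE1 part, at -232 to -224 from the start, and the cAMP response element, at -159 to -152, both in capitals.
Syn1 promoter: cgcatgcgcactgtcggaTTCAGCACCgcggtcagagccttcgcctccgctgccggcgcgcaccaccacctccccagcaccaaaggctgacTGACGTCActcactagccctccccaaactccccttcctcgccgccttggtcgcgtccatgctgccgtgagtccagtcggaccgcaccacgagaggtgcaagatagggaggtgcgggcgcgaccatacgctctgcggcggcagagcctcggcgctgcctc
The Unc13a site, chr8:71671727-71671752 on the plus strand, opposite to the gene and 6 to 31 bases after its start, holds both parts, in capitals, with other bases between them.
Unc13a site: TTCAGCACCgggggcgcGGACAGCGC
Syn1 was near equal in the pools at 31.4 and 31.8 TPM, whereas Unc13a was at 27.8 and 19.4 TPM. Whether a factor was bound at either place was not measured here.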

How the data were processed

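Total RNA-seq tables of 2 forebrain pools were used, 1 gene and 1 transcript table per library. Per the labels, RNA was extracted with mirVana and the assembly is mm10. For aligner, counter and strand setting, nothing is given in the sources used here. The authors deposited expected counts per gene, unnormalized, per the file headers. The authors also deposited TPM and FPKM values, TPM scaled over all listed features with spike-ins inside (5.93% of TPM in replicate 1, 4.10% in replicate 2). In the transcript tables the authors deposited the percent of a gene's TPM that each transcript holds. Features that name no gene, spike-ins and tRNA-like entries, held 2.40% and 1.62% of counts and were left out.

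Symbols and coordinates came from GENCODE M21 (GRCm38), which matched 42462 genes by identifier. Expected counts were rounded for edgeR 4.0.16 (R 4.3.3), which gave TMM factors. Log2 ratios used a prior count of 0.5, and a difference required a mean count of at least 50, 2-fold and a 95% exact Clopper-Pearson interval excluding equality. Such intervals cover counting error only. With 1 library on each side no p-value was computed. Ratios and calls were tested on simulated data. DESeq2 1.42.0 gave alternative size factors. Other steps used Python 3.11.15 with pandas 2.3.3 and scipy 1.17.1.

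The 49 genes, the other lists, the pairs and the rule for named genes were chosen with earlier results of these data known. Some genes and 1 pair of these lists are not reported here and were left out of their counts. By that rule every gene was named, with fuller values for the 2 highest and the lowest of each role, all pairs, the transcript genes, the gene 2-fold apart and the 5 largest ratios in each direction. Alternatives covered FPKM, posterior means, scaling, count minimum, pseudocount and each replicate left out.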

Additional observations from a re-analysis of the deposited data

How the results depend on the processing

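No paired analysis was possible because the series holds 1 group. The median ratio of the vesicle and active zone genes was -0.31 to -0.33 under size factors, protein-coding scaling, posterior means, count minimums of 20, 200 or none and a prior count of 2, and Unc13c alone was 2-fold apart in each. Spike-in scaling reversed the median to 0.24, with 3 genes below 0 and 0 genes 2-fold apart, and scaling to the neuron markers, chosen after the data were seen, also left 0, with medians of -0.24 by their sum and -0.12 by their median, the latter with 33 genes below 0. These scalings shift every gene alike, so the distance to all genes stays at 0.33 by construction. By FPKM, 3 genes reached 100 and the median level was 17.9; rescaled over nuclear protein-coding genes the median was 37.5 TPM. Without 1 replicate the median level was 27.2 or 31.8 TPM, 47 genes reached 1 TPM in either case, 35 or 37 reached 10 TPM and 9 or 10 reached 100 TPM; no ratio exists then. The leading transcript was shared by 16 of 18 genes at 30 TPM (94.2% of all genes), 32 of 38 at 1 TPM (84.2%, against 89.8%) and 27 of 29 by posterior means (92.9% of all genes). Pairs counted as different were 21 for every pseudocount and unit, 23 at 2 SD and 17 at 5 SD. Depth limits Cplx3, at 2 and 3 counts, and leaves Syt2, Unc13c, Sv2c, Rimbp2, Doc2b and Cadps2 with wide intervals.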
